A study of Homo sapiens with 12 samples.

Results

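The PAF1 complex travels with RNA polymerase II through transcribed genes. In human cells its subunits are PAF1, CTR9, LEO1, CDC73, RTF1 and WDR61 (also named SKIC8). The 6 genes were taken by name from a table of read counts with 60666 human genes, and each name matched 1 row. All 6 passed the filter on low counts, among 20791 genes tested. The libraries were made from poly(A) RNA of DLD-1, an established cell line from a colorectal adenocarcinoma, in which an auxin-inducible degron (AID) was fused to SPT6 or to PAF1. All cells, controls included, also expressed OsTIR1, a plant receptor that passes the tagged protein on for degradation once auxin is present. The groups were SPT6-AID cells at 0, 2 and 6 h after 500 µM auxin was given, and PAF1-AID cells at the same times, with 2 libraries in each of the 6 groups. The 0 h cells carried the tag and the receptor but had received no auxin.

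The labels do not say whether the libraries of a group came from separate cultures, nor how many clones each line stands for, so a p-value here weighs a difference against the scatter of libraries only, and that scatter may be technical. No auxin-treated cells without a tag were analysed, so each change from 0 h combines loss of the tagged protein with any effect of auxin. Protein was not measured. In RNA from a whole culture, fewer cells that express a gene and less of its RNA per cell cannot be told apart.

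CTR9 and PAF1 form the scaffold of the complex, LEO1 pairs with PAF1, and CDC73 (parafibromin, a tumour suppressor of the parathyroid) touches the polymerase. RTF1 stimulates ubiquitylation of histone H2B in transcribed genes and, in human cells, is bound less tightly than the others. WDR61 is a WD-repeat protein that also belongs to the SKI complex, which feeds RNA to the cytoplasmic exosome. The complex is known for helping paused polymerase move into productive elongation. SPT6 is a histone chaperone that travels with the same polymerase, and the series asked how SPT6 and the PAF1 complex are linked in pause release.

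The mRNAs of the complex did not move together. After 6 h of auxin in SPT6-AID cells LEO1, CDC73 and RTF1 fell and CTR9 rose, where 25.2% of all genes passed. In PAF1-AID cells at the same time CTR9 alone of the 6 passed the test, and it rose, where 10.9% of all genes passed. Neither line had a subunit past the threshold at 2 h. Of all genes, 0.548% passed at 2 h in SPT6-AID cells and 0.149% in PAF1-AID cells. These calls used edgeR's quasi-likelihood test with Benjamini-Hochberg adjustment over all genes tested, at a threshold of 0.05, on counts scaled by TMM, which sets library sizes so that most genes do not differ. When libraries were scaled instead by their reads on fly genes, the rise of CTR9 in SPT6-AID cells did not pass.

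The start regions of 3 subunits are shown because their mRNAs went different ways: CTR9, which rose, and LEO1 and RTF1, which fell after auxin in SPT6-AID cells. Each line holds 250 bases before to 50 after the RefSeq start site on build GRCh38.p14, 5′ to 3′ on the gene's own strand, with matches to the searched motifs in capitals.
CTR9: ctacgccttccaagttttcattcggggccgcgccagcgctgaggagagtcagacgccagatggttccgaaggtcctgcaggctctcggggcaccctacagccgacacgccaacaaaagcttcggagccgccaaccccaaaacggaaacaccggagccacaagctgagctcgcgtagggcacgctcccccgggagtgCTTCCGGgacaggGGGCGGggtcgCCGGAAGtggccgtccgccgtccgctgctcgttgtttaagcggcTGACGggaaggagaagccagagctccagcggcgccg
LEO1: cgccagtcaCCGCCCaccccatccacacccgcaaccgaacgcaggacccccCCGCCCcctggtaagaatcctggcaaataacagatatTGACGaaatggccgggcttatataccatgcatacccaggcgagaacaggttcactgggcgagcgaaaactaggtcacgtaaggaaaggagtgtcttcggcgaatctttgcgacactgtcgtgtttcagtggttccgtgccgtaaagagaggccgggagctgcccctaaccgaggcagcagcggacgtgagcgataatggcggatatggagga
RTF1: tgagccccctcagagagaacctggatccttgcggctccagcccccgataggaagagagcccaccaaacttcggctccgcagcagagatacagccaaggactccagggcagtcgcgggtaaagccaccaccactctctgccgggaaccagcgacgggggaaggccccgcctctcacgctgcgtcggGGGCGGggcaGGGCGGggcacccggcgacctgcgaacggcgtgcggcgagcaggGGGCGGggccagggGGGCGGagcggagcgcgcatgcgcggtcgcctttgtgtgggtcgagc

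These windows are chr11:10750996-10751295 (plus strand) for CTR9, chr15:51971729-51972028 (minus strand) for LEO1 and chr15:41416845-41417144 (plus strand) for RTF1. The windows of CTR9 and RTF1 lie inside the spans that GENCODE 29 gives these genes. RefSeq entries were found for 5 of the 6 subunits, WDR61 under the symbol SKIC8. The motifs searched, on both strands, were TATAAA (the TATA box), CCAAT (read by NF-Y), GGGCGG (the GC box, read by SP1), CCGGAAG (read by ETS family factors), CACGTG (the E-box, read by MYC and USF), TGCGCA (part of the site of NRF1) and TGACG (part of the site of CREB and ATF factors). The CTR9 window held CCGGAAG at -54 and -30, GGGCGG at -41 and TGACG at 15, counted from the start site. The LEO1 window held GGGCGG at -241 and -199 and TGACG at -162, and the RTF1 window held GGGCGG at -65, -55, -11 and 4. CCGGAAG was found in the windows of CTR9 and WDR61 (3 matches, of which a pair overlaps) and in 10.3% of all 35116 promoters in the table. GGGCGG was in all 5 windows and in 45.0% of all promoters, TGACG in those of CTR9, LEO1 and PAF1 and in 24.6%, and CCAAT in that of PAF1 alone, with 3 matches, and in 34.6%. No match to TATAAA (11.5% of all promoters), CACGTG (7.26%) or TGCGCA (8.24%) was found in the 5 windows. A match describes these letters only.

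The 12 libraries held 31957953 to 115904780 counts, of which 29961183 to 110340057 were on human genes. The rest, 3.94 to 6.25% of a library, were on 17807 fly genes. The fly share was 5.36 and 6.25% in SPT6-AID cells at 6 h, against 4.31 and 4.30% at 0 h, and 5.10 and 4.92% in PAF1-AID cells at 6 h, against 3.94 and 4.39% at 0 h. How much fly material was added is not given in the sources used here, so fly-scaled values serve as an alternative to the TMM ones. The 2 libraries of a group differed by far more than counting noise (chi-square of 37.7 to 71.0 per degree of freedom). The epithelial markers EPCAM (802 to 1032 CPM, read counts scaled to library size), KRT8, KRT18 and CDX2 were high in every library, whereas CDX1 was at 0 and VIL1, LGALS4 and GPA33 stayed under 1 CPM. Summed over the 13 epithelial markers the level was 5966 to 6466 CPM in SPT6-AID cells at 6 h, against 5324 to 5467 CPM at 0 h. Blood markers (4 genes) summed to 1.57 to 1.98 CPM in SPT6-AID cells at 6 h, against 0.328 to 0.637 CPM at 0 h, and fibroblast and endothelial markers (6 genes) to 3.20 to 3.70 CPM, against 1.86 to 3.602 CPM. PTPRC, the defining blood marker, never passed 0.250 CPM. The part of these marker shifts in the subunit values was not tested.

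**Figure D1:**
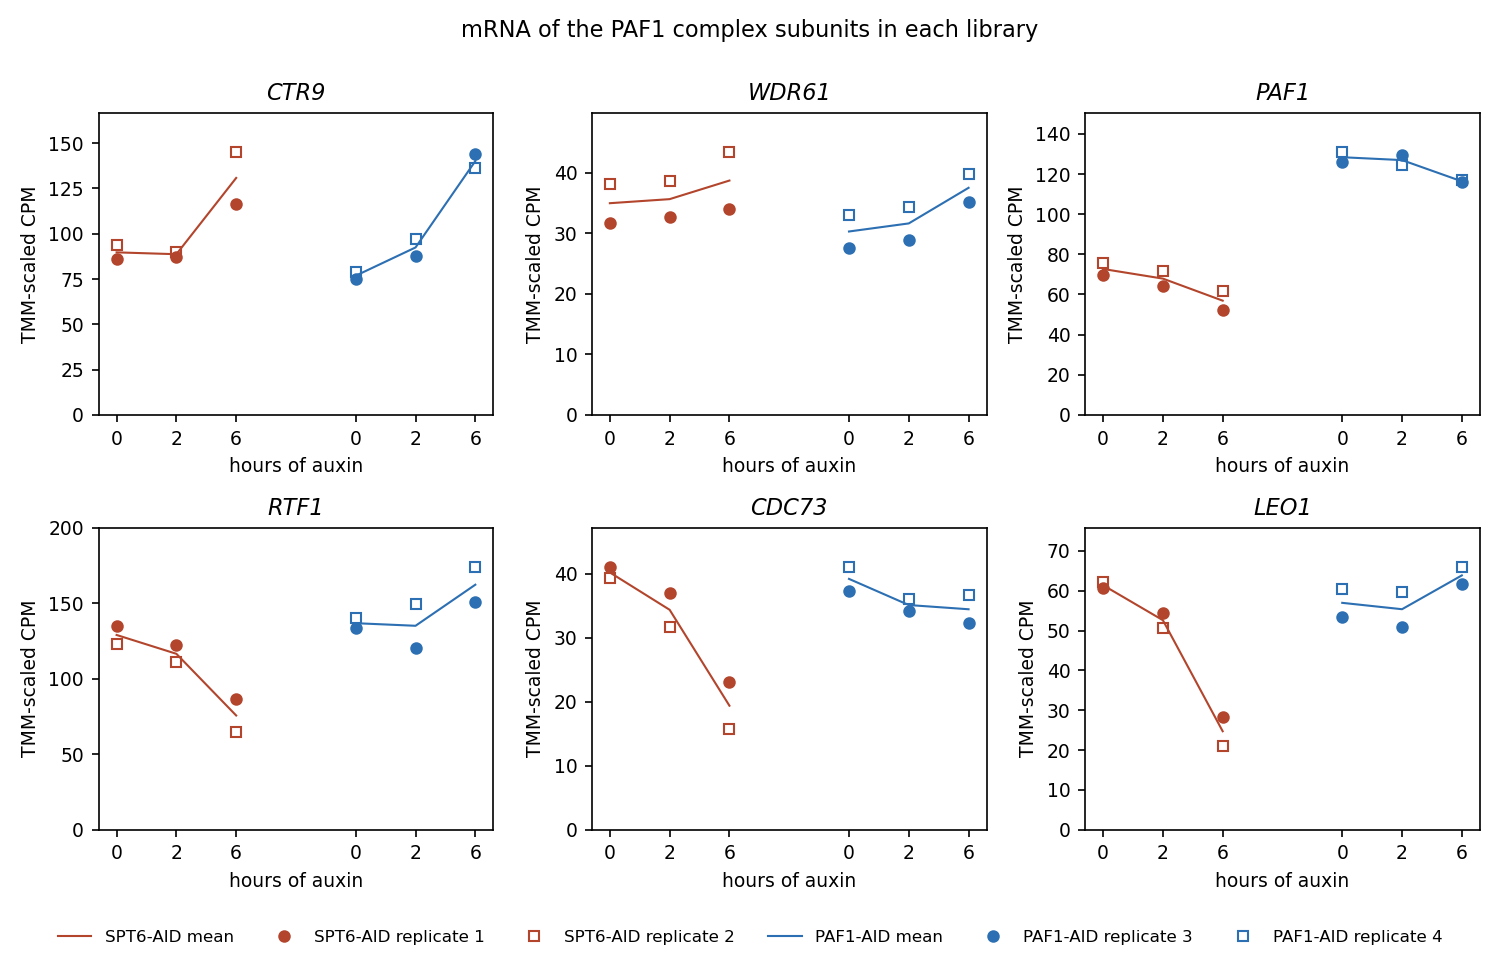
TMM-scaled CPM (y axis, from 0) of each subunit in every library by hours of auxin (x axis), SPT6-AID in red and PAF1-AID in blue, with 1 symbol per library and lines through the means of 2. CTR9 ends highest in both lines, LEO1, CDC73 and RTF1 end lowest in SPT6-AID cells, and PAF1 lies higher in PAF1-AID cells at every time.

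CTR9 is a tetratricopeptide-repeat protein that holds the complex together (ENSG00000198730, GRCh38 chromosome 11, 10750987 to 10801625, plus strand). In PAF1-AID cells it stood at 74.8 and 78.9 CPM at 0 h, 87.8 and 97.0 CPM at 2 h, and 144 and 136 CPM at 6 h, the highest values of the series for the gene apart from 1 SPT6-AID library. The 3 times did not overlap. For 55.1% of all genes the 6 h libraries did not overlap the 0 h ones in this line, in either direction. CTR9 averaged 140.1 ± 5.69 CPM at 6 h and 76.8 ± 2.86 CPM at 0 h in these cells (SD, n = 2 each), a rise of 0.87 ± 0.13 on the log2 scale (log2 fold change ± SE), or 1.82-fold (adjusted p = 0.00352 by edgeR's quasi-likelihood test). At 2 h the value was 0.27 ± 0.13 and did not pass (edgeR adjusted p = 0.737), though both libraries lay above both at 0 h, as those of 35.8% of all genes did in either direction. Between 6 and 2 h it was 0.60 ± 0.13 (edgeR adjusted p = 0.0597, and 0.00310 by DESeq2's Wald test, which was an alternative).

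In SPT6-AID cells CTR9 was at 85.8 and 93.6 CPM at 0 h, 87.2 and 90.1 CPM at 2 h, and 117 and 145 CPM at 6 h. Here the 2 h libraries lay among the 0 h ones, and both 6 h libraries lay above all others. Of all genes 58.7% had no overlap between 6 and 0 h in this line, in either direction. CTR9 averaged 130.8 ± 20.2 CPM at 6 h and 89.7 ± 5.47 CPM at 0 h (SD, n = 2 each), a rise of 0.54 ± 0.13 (log2 ± SE), or 1.46-fold (edgeR quasi-likelihood test, adjusted p = 0.0115). The call was lost when libraries were scaled by fly reads (0.09, adjusted p = 0.654), without the 6 h library of replicate 2 (0.38, adjusted p = 0.0767) or without the 0 h library of replicate 1 (0.46, adjusted p = 0.0974). The rise in PAF1-AID cells passed under fly scaling too, at 0.48 (adjusted p = 0.0372). The SPT6-AID response minus the PAF1-AID response at 6 h was -0.32 ± 0.18 and did not pass (edgeR adjusted p = 0.455).

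CTR9 shares a stretch of genome with EIF4G2, a translation factor gene on the opposite strand, and whether counting used the strand is not given in the sources used here. The shared exon bases were 134, or 2.22% of the exon bases of CTR9, but EIF4G2 held 1371392 counts over the 12 libraries against 64306 for CTR9. EIF4G2 changed by 0.15 in SPT6-AID cells and by 0.22 in PAF1-AID cells at 6 h against 0 h on the log2 scale, neither past the threshold (edgeR adjusted p = 0.531 and 0.435). The part of EIF4G2 reads in the CTR9 values was not tested.

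LEO1 joins PAF1 as a heterodimer on the outer side of the complex (ENSG00000166477, chromosome 15, 51938025 to 51971806, minus strand). In SPT6-AID cells it was at 60.7 and 62.1 CPM at 0 h, 54.5 and 50.7 CPM at 2 h, and 28.3 and 21.1 CPM at 6 h. Each time lay wholly below the one before it. Of all genes 58.7% had no overlap between 6 and 0 h in this line and 32.6% none between 2 and 0 h, in either direction. LEO1 averaged 24.7 ± 5.10 CPM at 6 h and 61.4 ± 0.981 CPM at 0 h (SD, n = 2 each) and fell by 1.31 ± 0.16 on the log2 scale, to 0.404 times the 0 h level (edgeR quasi-likelihood test, adjusted p = 0.000365). Among all tested genes 4.72% had a lower log2 fold change in this comparison. Most of the fall came between 2 and 6 h, where the change was -1.09 ± 0.16 (edgeR adjusted p = 0.00211), against -0.22 ± 0.15 between 0 and 2 h (adjusted p = 1).

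In PAF1-AID cells LEO1 was at 53.5 and 60.4 CPM at 0 h, 50.9 and 59.8 CPM at 2 h, and 61.7 and 65.9 CPM at 6 h, with a log2 change at 6 h of 0.16 ± 0.15 that did not pass (edgeR adjusted p = 0.565) and was -0.21 under fly scaling. No LEO1 library of PAF1-AID cells was as low as any SPT6-AID library at 6 h. The difference between the responses at 6 h, SPT6-AID minus PAF1-AID, was -1.47 ± 0.22 for LEO1 and passed the test of that difference (edgeR interaction term, adjusted p = 0.0130). It did not pass under fly scaling, which left the value at -1.50 (adjusted p = 0.108), nor without any 1 of 3 of the 12 libraries, where adjusted p reached 0.0711.

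TMOD3 and MAPK6, both on the opposite strand, overlap the LEO1 gene. They share 4 and 0 exon bases with it. MAPK6 also fell at 6 h in SPT6-AID cells, with a log2 change of -1.1399 ± 0.16 (edgeR adjusted p = 0.000650), and TMOD3 was at -0.49 ± 0.16 (edgeR adjusted p = 0.05002, just over the threshold). The part of their reads in the LEO1 values was not tested.

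CDC73 (ENSG00000134371, chromosome 1, 193121800 to 193254815, plus strand) followed LEO1 in SPT6-AID cells. It was at 41.0 and 39.3 CPM at 0 h, 37.0 and 31.7 CPM at 2 h, and 23.0 and 15.7 CPM at 6 h. Again the 3 times did not overlap. The mean was 19.4 ± 5.12 CPM at 6 h and 40.2 ± 1.20 CPM at 0 h (SD, n = 2 each), a fall of 1.05 ± 0.18 on the log2 scale (edgeR quasi-likelihood test, adjusted p = 0.00214). In PAF1-AID cells it was at 37.3 and 41.0 CPM at 0 h, 34.1 and 36.1 CPM at 2 h, and 32.2 and 36.6 CPM at 6 h, and the log2 change of -0.19 ± 0.18 at 6 h did not pass (edgeR adjusted p = 0.574). Both 6 h libraries were below both 0 h libraries in each line. Of all genes 58.7% in SPT6-AID cells and 55.1% in PAF1-AID cells had no overlap between these times, in either direction. The difference between the responses at 6 h was -0.86 ± 0.25 and missed the threshold (edgeR adjusted p = 0.0953), though it passed by DESeq2's Wald test (-0.82, adjusted p = 0.0431) and without the SPT6-AID 6 h library of replicate 1 (-1.13, adjusted p = 0.0191).

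RTF1 (ENSG00000137815, chromosome 15, 41408408 to 41483563, plus strand), whose product binds the elongation factor SPT5, had the smallest of the 3 falls. In SPT6-AID cells it was at 135 and 123 CPM at 0 h, 122 and 111 CPM at 2 h, and 86.8 and 64.6 CPM at 6 h, and the times did not overlap. Between 6 and 0 h 58.7% of all genes had no overlap in this line, in either direction. RTF1 averaged 75.7 ± 15.7 CPM at 6 h and 129 ± 8.81 CPM at 0 h (SD, n = 2 each), a fall of 0.77 ± 0.17 on the log2 scale (edgeR quasi-likelihood test, adjusted p = 0.00704). Without the 6 h library of replicate 2 the value was -0.57 and did not pass (adjusted p = 0.0556).

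In PAF1-AID cells RTF1 pointed the other way, at 134 and 139.9 CPM at 0 h, 120.3 and 149.8 CPM at 2 h, and 150.5 and 174 CPM at 6 h. Both 6 h libraries lay above both 0 h ones, where 55.1% of all genes had no overlap in either direction. The log2 change of 0.25 ± 0.16 did not pass (edgeR adjusted p = 0.393) and turned to -0.14 under fly scaling. The difference between the responses at 6 h was -1.01 ± 0.23 and passed narrowly (edgeR interaction term, adjusted p = 0.0424). That call held in 6 of 21 alternative settings, and its adjusted p ran to 0.237.

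PAF1, the subunit that carries the degron in PAF1-AID cells (ENSG00000006712, chromosome 19, 39385852 to 39391195, minus strand), differed more between the lines than over time. At 0 h it was at 126 and 131 CPM in PAF1-AID cells, against 69.6 and 75.8 CPM in SPT6-AID cells, and the groups did not overlap, like those of 32.7% of all genes. The means were 128 ± 3.596 and 72.7 ± 4.39 CPM (SD, n = 2 each), a log2 difference of 0.82 ± 0.12, or 1.77-fold. This missed the threshold in the main test (edgeR quasi-likelihood test, adjusted p = 0.0869, unadjusted p = 3.84e-05), in a comparison where 7 genes, or 0.0337% of all tested, passed. It passed by DESeq2's Wald test (adjusted p = 8.85e-06), with no filter on low counts (0.000783) and with a filter at a mean of 1 CPM (0.0421), but not by limma-voom. The degron acts on the protein, so the mRNA is no check of depletion, and whether reads from the tagged allele count fully is not given in the sources used here.

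With auxin, PAF1 mRNA in PAF1-AID cells was at 129.5 and 124 CPM at 2 h and 116 and 117 CPM at 6 h. Both 6 h libraries were below both at 0 h, where 55.1% of all genes had no overlap in either direction. The log2 change of -0.14 ± 0.12 did not pass (edgeR adjusted p = 0.512). In SPT6-AID cells PAF1 was at 64.2 and 71.6 CPM at 2 h and 52.3 and 61.5 CPM at 6 h. Here the 6 h libraries also lay below the 0 h ones, where 58.7% of all genes had no overlap in either direction. The log2 change was -0.35 ± 0.12, with a p just over the threshold (edgeR adjusted p = 0.0542). Scaled by fly reads PAF1 passed at 6 h in both lines, at -0.80 in SPT6-AID cells (adjusted p = 0.00182) and -0.53 in PAF1-AID cells (adjusted p = 0.0282).

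The other targeted gene pointed the other way between the lines. SUPT6H, which encodes SPT6, was at 261 and 287 CPM at 0 h in PAF1-AID cells, against 496 and 501 CPM in SPT6-AID cells, with a log2 difference of -0.86 ± 0.11 (edgeR quasi-likelihood test, adjusted p = 0.0333). At 0 h the mean mRNA level of each tagged gene was thus higher in its own line, and of the 2 differences the one for SUPT6H passed in the main test. Under total counts and under fly totals 0 genes were higher and 0 lower between the lines, so neither difference passed there and the SUPT6H call was lost. The PAF1 difference passed in the alternatives named above, for which SUPT6H was not read out. Whether each difference passed thus depended on the processing. In PAF1-AID cells SUPT6H was at 374 and 359 CPM at 6 h, a rise of 0.42 ± 0.11 under TMM (edgeR adjusted p = 0.0329). Fly totals moved the median of all genes in this comparison to -0.37, against 0.02 under TMM. The SUPT6H value was not read out from the fit under fly totals. In PAF1-AID cells its reads numbered 11415 and 12510 at 0 h, beside 1661945 and 1985456 fly reads. At 6 h they numbered 21657 and 20913, beside 3236788 and 3062499 fly reads. Per fly read the libraries of these times overlapped, so the SUPT6H rise is given for TMM only.

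WDR61 (ENSG00000140395, chromosome 15, 78277835 to 78299794, minus strand) in SPT6-AID cells was at 31.7 and 38.2 CPM at 0 h, 32.7 and 38.6 CPM at 2 h, and 34.0 and 43.4 CPM at 6 h, so that all times overlapped. In PAF1-AID cells it was at 27.6 and 33.0 CPM at 0 h, 28.9 and 34.4 CPM at 2 h, and 35.2 and 39.8 CPM at 6 h, where the 6 h libraries were above the others. Of all genes 55.1% had no overlap between 6 and 0 h in these cells, in either direction. The log2 changes at 6 h were 0.15 ± 0.18 in SPT6-AID cells and 0.31 ± 0.18 in PAF1-AID cells, neither of which passed (edgeR adjusted p = 0.600 and 0.322), and under fly scaling they were -0.31 and -0.07. A p over the threshold does not show that WDR61 was unchanged.

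**Figure D2:**
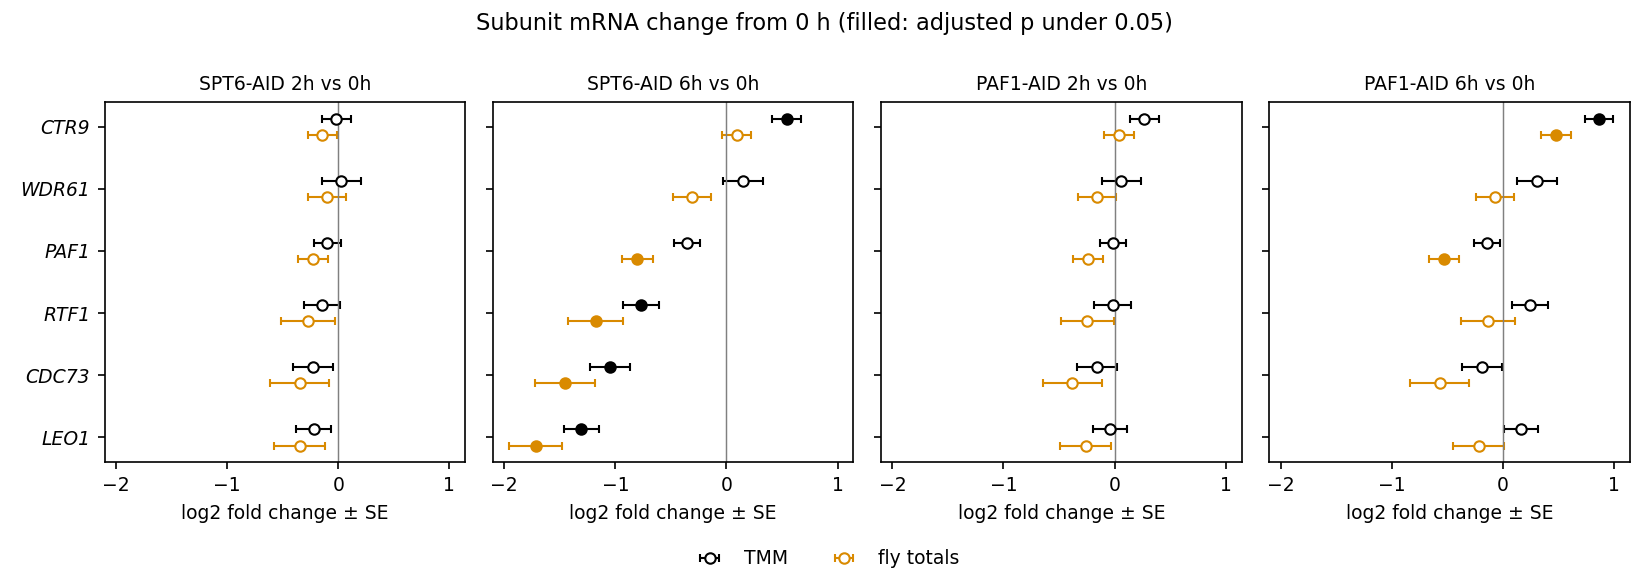
Log2 fold change from 0 h with its SE (x axis) for each subunit (y axis) in the 4 comparisons with 0 h, scaled by TMM (black) and by fly totals (orange), with filled symbols where the adjusted p was under 0.05. At 2 h no symbol is filled; at 6 h LEO1, CDC73 and RTF1 are filled in SPT6-AID cells under both scalings and CTR9 in PAF1-AID cells under both, and every fly-scaled value lies to the left of its TMM value.

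Counted over the complex, 1 subunit rose and 3 fell at 6 h against 0 h in SPT6-AID cells, where 25.2% of all genes passed (8.76% higher and 16.4% lower), and 5 of the 6 had libraries that did not overlap, against 58.7% of all genes. The median log2 fold change was -0.56 over the 6 subunits and 0.04 over all genes. Scaled by fly reads, which moved the median of all genes to -0.39, 0 subunits rose and 4 fell (PAF1, LEO1, CDC73 and RTF1), and over all genes 958 rose and 5842 fell, against 1821 and 3409 under TMM. In PAF1-AID cells 1 subunit rose and 0 fell at 6 h against 0 h, where 10.9% of all genes passed (4.2% higher and 6.7% lower), and all 6 had libraries that did not overlap, against 55.1% of all genes. The median was 0.21 over the subunits and 0.02 over all genes. Scaled by fly reads, with the median of all genes at -0.37, 1 subunit rose and 1 fell, and over all genes 296 rose and 2865 fell, against 873 and 1394 under TMM. Under TMM, CTR9 was thus higher at 6 h in both lines, as were 478 genes, or 2.3% of those tested. Scaled by fly reads, CTR9 in SPT6-AID cells was at 0.09 on the log2 scale and did not pass (edgeR adjusted p = 0.654). The lines have no libraries in common.

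At 2 h against 0 h no subunit passed in SPT6-AID cells, where 0.548% of all genes did, nor in PAF1-AID cells, where 0.149% did. In neither case was any subunit under an unadjusted p of 0.05 by edgeR, and DESeq2 and limma-voom also called 0. In SPT6-AID cells LEO1, CDC73 and RTF1, the same 3 that fell at 6 h, were already lower in both 2 h libraries than in both 0 h libraries, by 0.22, 0.23 and 0.15 on the log2 scale. Non-overlap of this kind was seen in 32.6% of all genes in that comparison. The difference between the lines at 2 h was past the threshold for 0 subunits, and 0.0337% of all genes passed, with 0 subunits under an unadjusted p of 0.05 and 0 by DESeq2 or limma-voom.

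Between 6 and 2 h in SPT6-AID cells, 1 subunit rose (CTR9, 0.56 ± 0.13, edgeR adjusted p = 0.0158) and 3 fell, where 15.7% of all genes passed (5.32% higher and 10.4% lower). CDC73 changed by -0.82 ± 0.18 and RTF1 by -0.62 ± 0.16 (edgeR adjusted p = 0.0125 and 0.0289). LEO1 passed in all 22 alternative settings, CDC73 in 19, CTR9 in 17 and RTF1 in 16. Scaled by fly reads 0 subunits rose and 4 fell, since CTR9 no longer passed (0.23, adjusted p = 0.261) and PAF1 did (-0.57, adjusted p = 0.0183). LEO1 alone of the 6 passed when SPT6-AID libraries were fitted by themselves, without the 2 h library of replicate 1 or without the 6 h library of replicate 2, and without the 2 h library of replicate 2 LEO1 and CDC73 passed. In PAF1-AID cells 0 subunits passed between 6 and 2 h, where 0.875% of all genes did. By unadjusted p under 0.05, CTR9 was the 1 subunit in that comparison, and DESeq2 called it too, while limma-voom called 0. The difference between the responses at 6 h passed for 2 of the 6 subunits, LEO1 and RTF1, both more negative in SPT6-AID cells, where 3.74% of all genes passed (0.62% higher and 3.12% lower).

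**Figure D3:**
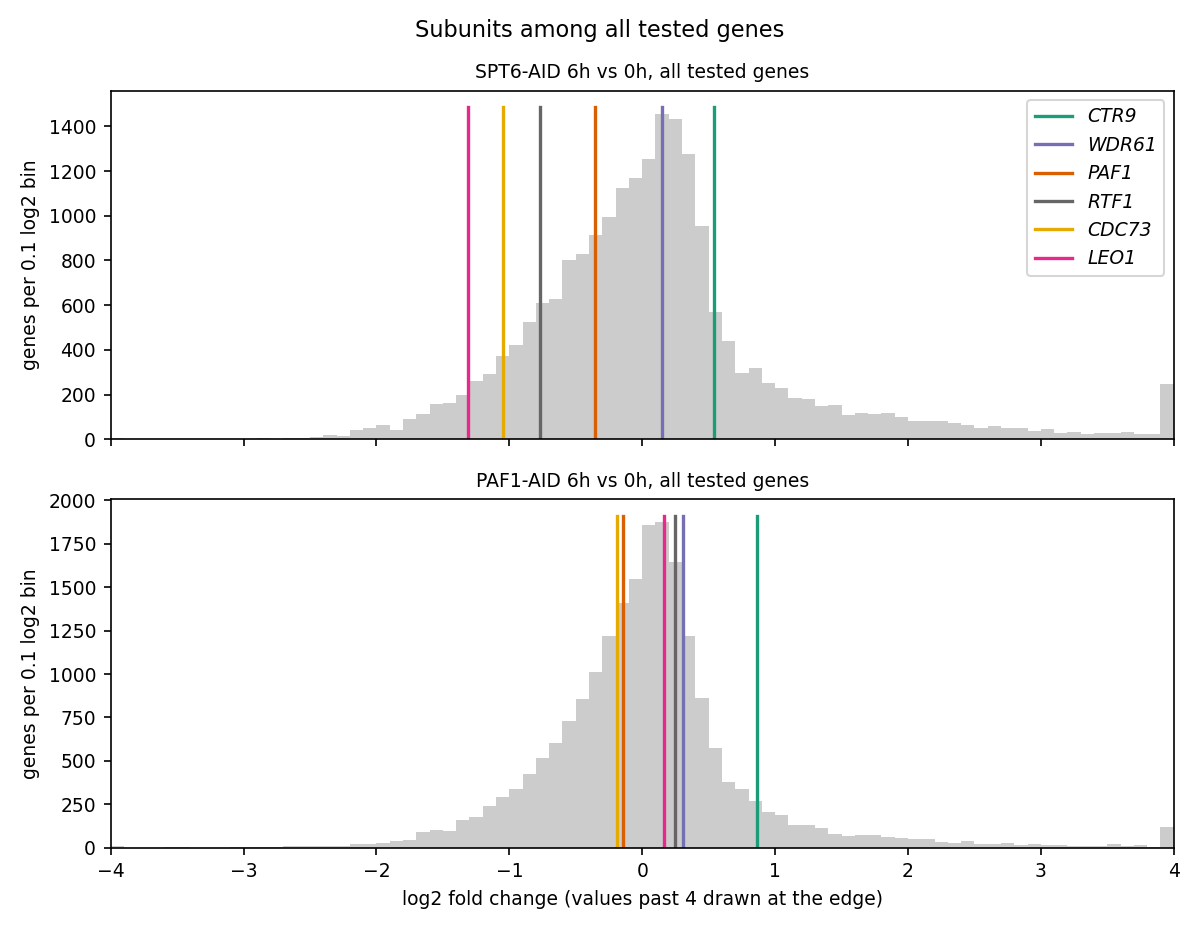
Number of tested genes (y axis) by log2 fold change at 6 h against 0 h (x axis, in steps of 0.1, with values past 4 drawn at the edge) in SPT6-AID cells (above) and PAF1-AID cells (below), with a line at each subunit's value. In SPT6-AID cells LEO1, CDC73 and RTF1 stand in the left slope, and in PAF1-AID cells CTR9 stands apart from the other 5 on the right.

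Within the distribution of all genes at 6 h in SPT6-AID cells, 4.72% had a lower log2 fold change than LEO1, 8.29% than CDC73, 14.8% than RTF1, 29.6% than PAF1, 57.0% than WDR61 and 79.8% than CTR9. In PAF1-AID cells the share was 91.3% for CTR9, and the other 5 ran from 34.9% for CDC73 to 74.7% for WDR61.

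Because the libraries can be scaled in more than 1 way, counts of a pair of subunits were also divided within each library, which needs no scaling. The ratio of CTR9 to LEO1 reads in SPT6-AID cells was 1.46 ± 0.0658 at 0 h, 1.69 ± 0.123 at 2 h and 5.49 ± 1.95 at 6 h (SD, n = 2 each), with 4.11 and 6.86 in the 6 h libraries. In PAF1-AID cells the same ratio was 1.35 ± 0.0648 at 0 h, 1.67 ± 0.0721 at 2 h and 2.20 ± 0.192 at 6 h (SD, n = 2 each). In both lines the 3 times did not overlap, and the 6 h ratios of SPT6-AID cells were all above those of PAF1-AID cells. An exact permutation test of 2 against 2 libraries cannot pass 0.05, so none was run on the ratios. The higher of the SPT6-AID ratios at 6 h belonged to the library with the fewest counts, at 605 LEO1 and 4153 CTR9 reads.

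The ratio of CTR9 to CDC73 went the same way, at 2.24 ± 0.203 at 0 h, 2.60 ± 0.346 at 2 h and 7.14 ± 2.93 at 6 h in SPT6-AID cells, and 1.96 ± 0.0564, 2.63 ± 0.0783 and 4.09 ± 0.535 in PAF1-AID cells (SD, n = 2 each). CTR9 to RTF1 was 0.699 ± 0.0902, 0.764 ± 0.0694 and 1.79 ± 0.639 at 0, 2 and 6 h in SPT6-AID cells, and 0.562 ± 0.00238, 0.689 ± 0.0583 and 0.870 ± 0.124 in PAF1-AID cells (SD, n = 2 each). CTR9 to WDR61 did not climb further in SPT6-AID cells, at 2.58 ± 0.182 at 0 h and 3.38 ± 0.0598 at 6 h. In PAF1-AID cells it was 2.55 ± 0.231 and 3.75 ± 0.472 (SD, n = 2 each). PAF1 to CTR9 moved down in both lines. It was 0.437 ± 0.0175 at 6 h and 0.810 ± 0.000445 at 0 h in SPT6-AID cells, and 0.832 ± 0.0386 at 6 h and 1.67 ± 0.0154 at 0 h in PAF1-AID cells (SD, n = 2 each). The PAF1-AID ratio at 6 h was thus close to the SPT6-AID ratio at 0 h, from a higher start.

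LEO1 to RTF1, a pair of subunits that both fell, changed less. The ratio was 0.477 ± 0.0402, 0.452 ± 0.00805 and 0.327 ± 0.000389 at 0, 2 and 6 h in SPT6-AID cells, and 0.416 ± 0.0217, 0.411 ± 0.0171 and 0.395 ± 0.0219 in PAF1-AID cells (SD, n = 2 each). LEO1 to CDC73 stayed between 1.29 ± 0.0771 at 6 h in SPT6-AID cells and 1.86 ± 0.0812 at 6 h in PAF1-AID cells (SD, n = 2 each).

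**Figure D4:**
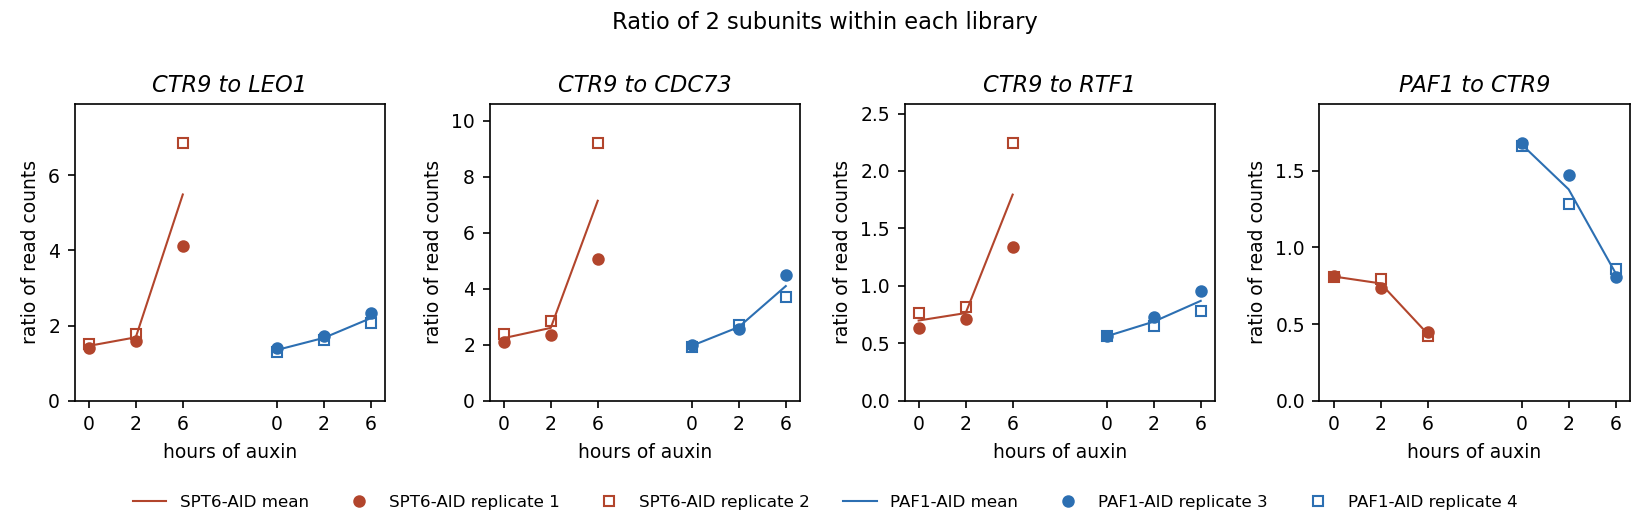
Ratio of the read counts of a pair of subunits within each library (y axis, from 0) by hours of auxin (x axis), SPT6-AID in red and PAF1-AID in blue, with lines through the means of 2. The ratios of CTR9 to LEO1, CDC73 and RTF1 climb in both lines and further in SPT6-AID cells. There the libraries at 6 h are also farthest apart (4.11 and 6.86 for CTR9 to LEO1). PAF1 to CTR9 declines in both lines.

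Levels of different subunits can be compared only per length, so CPM were divided by the deposited transcript length in kilobases (kb). At 0 h in SPT6-AID cells PAF1 was highest at 25.5 CPM per kb, followed by LEO1 at 23.1 and RTF1 at 22.3, whose libraries overlapped. CTR9 came next at 15.5, and WDR61 at 4.87 and CDC73 at 3.82 CPM per kb were lowest. At 6 h CTR9 led at 22.7 CPM per kb with PAF1 at 19.97, and these overlapped. RTF1 at 13.1, LEO1 at 9.33, WDR61 at 5.39 and CDC73 at 1.84 CPM per kb followed without overlap between neighbours.

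In PAF1-AID cells at 0 h the order was PAF1 at 45.0 CPM per kb, RTF1 at 23.7, LEO1 at 21.5, CTR9 at 13.3, and WDR61 at 4.22 with CDC73 at 3.73, of which the last pair overlapped. At 6 h PAF1 was at 40.8, RTF1 at 28.1, CTR9 at 24.3 and LEO1 at 24.1 CPM per kb, the last pair overlapping, with WDR61 at 5.22 and CDC73 at 3.27. By group means CTR9 thus moved up the order in both lines. In PAF1-AID cells it moved past LEO1 alone, with overlapping libraries. Averaged over the 12 libraries, PAF1 was above 91.5% of all tested genes per length, RTF1 above 87.2%, LEO1 above 86.1%, CTR9 above 84.7%, WDR61 above 61.9% and CDC73 above 54.5%. The deposited lengths of CDC73 (10512 bases) and WDR61 (7188 bases) are the longest of the 6, and a cell that uses a shorter form would have its level understated.

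As a share of all 6 subunits' counts per kb in a library, CTR9 made up 28.4 and 34.2% in SPT6-AID cells at 6 h, against 15.8 and 16.8% at 0 h. LEO1 made up 15.02 and 10.9% at 6 h, against 24.4 and 24.2% at 0 h. PAF1 held nearly level there, at 25.8 and 29.4% at 6 h, against 26.0 and 27.6% at 0 h. In PAF1-AID cells CTR9 made up 20.3 and 18.3% at 6 h, against 12.02 and 11.9% at 0 h, and PAF1 33.1 and 31.9%, against 40.9 and 39.9%.

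**Figure D5:**
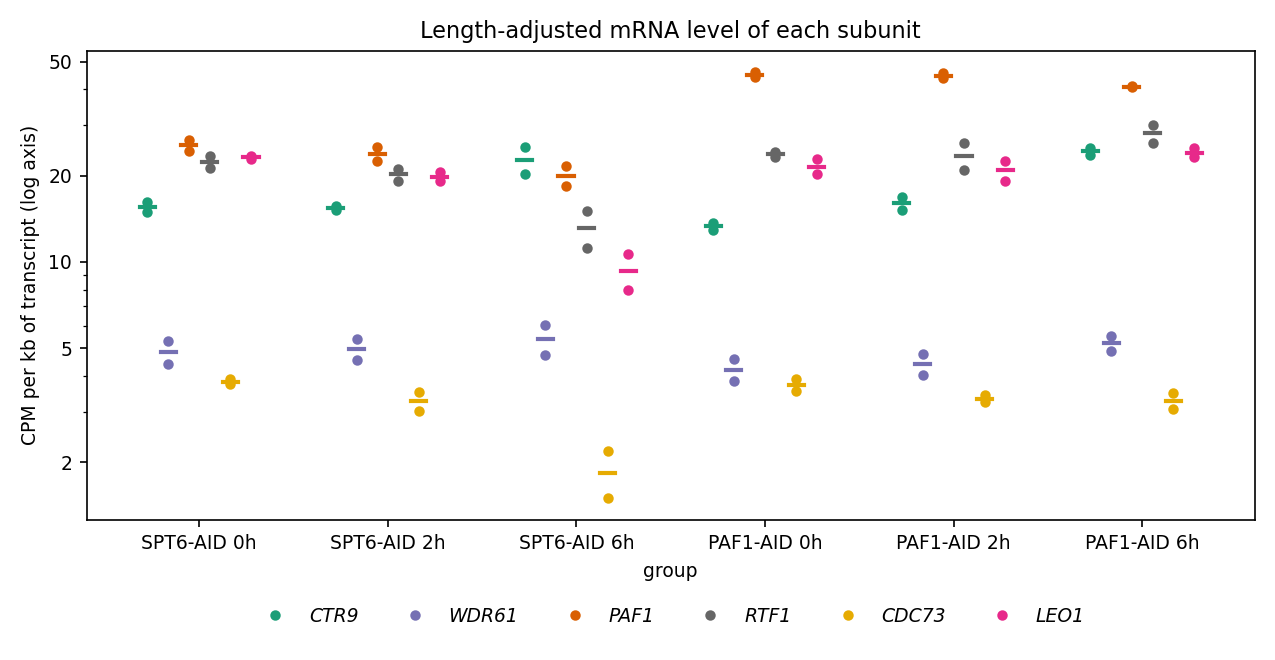
CPM per kb of deposited transcript (y axis, log scale) of the 6 subunits in each group (x axis), with 1 point per library and a bar at the mean of 2. CTR9 passes LEO1 and RTF1 at 6 h in SPT6-AID cells, PAF1 is highest in all PAF1-AID groups, and WDR61 and CDC73 lie lowest in every group.

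The genes most like each subunit were those with the smallest root mean square difference in log2 CPM over the 12 libraries, each line centred on its own 0 h mean, compared over 13279 genes whose log2 CPM averaged 1 or more. All points share the same libraries and scaling, so this is a description. For CTR9 they were ARL6IP1 (0.07), HLA-E (0.08) and OAT (0.10), with log2 fold changes at 6 h of 0.41, 0.56 and 0.61 in SPT6-AID cells and 0.86, 0.89 and 0.76 in PAF1-AID cells. For LEO1 they were AC016582.1, DDX3X and NCBP3, all at 0.08, with -1.32, -1.34 and -1.42 in SPT6-AID cells and 0.15, 0.05 and 0.07 in PAF1-AID cells. CDC73 was closest to ZNHIT6, NDE1 and REV3L (0.06 each), RTF1 to DENND4A (0.07), CAB39 and PGGT1B (0.08 each), PAF1 to CHMP4C (0.05), CAND1 and CFL2 (0.06 each), and WDR61 to AL354798.1, NONO (0.05 each) and PTMA (0.06).

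No subunit had another subunit among its 3 nearest genes. LEO1 and CDC73 were the closest pair, 0.19 apart, which made CDC73 the 145th nearest gene to LEO1 and LEO1 the 445th nearest to CDC73. CDC73 was also the nearest subunit to RTF1 (0.23, rank 920). CTR9 was nearest to WDR61 (0.30), at rank 1300, and PAF1 and WDR61 had their nearest subunits at ranks 5130 and 5171.

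Genes that work next to the complex were counted from 5 lists. The lists are described by counts and medians alone. None of their genes passed at 2 h in either line by edgeR. Of 12 genes of H2B ubiquitylation, the mark that RTF1 stimulates, 0 rose and 5 fell at 6 h in SPT6-AID cells (median log2 fold change -0.19, all genes 0.04), beside 8.76% higher and 16.4% lower among all genes. They included UBE2B, a ubiquitin-conjugating enzyme (-1.05 ± 0.13), WAC, which recruits the H2B ligase (-1.50 ± 0.19), and USP22, the deubiquitinase of SAGA (-1.25 ± 0.19). The ligase genes RNF20 and RNF40 did not pass. In PAF1-AID cells UBE2D1 rose (1.03 ± 0.15), UBE2B fell (-0.78 ± 0.13), and the other 10 did not pass (median -0.05, all genes 0.02), beside 4.2% higher and 6.7% lower among all genes. These shares and medians over all genes hold for the other lists too. All of them are on the TMM scale. Fly totals moved the median of all genes at 6 h to -0.39 in SPT6-AID cells and to -0.37 in PAF1-AID cells. The list genes were not read out under fly totals, so their rises and medians are given for TMM only.

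Of 12 genes of H3K4, H3K36 and H3K79 methylation, 1 rose and 8 fell at 6 h in SPT6-AID cells, with a median of -0.73 (all genes 0.04, with 8.76% higher and 16.4% lower). RBBP5, a core subunit of the COMPASS methyltransferases (-1.05 ± 0.14), NSD1, an H3K36 methyltransferase (-1.27 ± 0.21), and WDR5, another COMPASS core subunit (-0.90 ± 0.16), fell, while CXXC1, which brings SETD1 to unmethylated CpG islands, rose (0.56 ± 0.11). In PAF1-AID cells CXXC1 rose as well (0.40 ± 0.11) and 0 fell (median -0.06). The test of the difference between the responses at 6 h passed for RBBP5 (-1.48 ± 0.19) and KMT2B (-1.05 ± 0.19), by edgeR's interaction term (adjusted p = 0.00872 and 0.0201). It also passed, as lower, for 4 of 23 pause-release genes and 3 of 13 genes of SPT6, DSIF, FACT and partners. In the lists of H2B ubiquitylation and of the SKI complex and exosome it passed for 1 of 12 and 1 of 15, also lower. Of all genes 0.62% passed as higher and 3.12% as lower.

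Of 23 pause-release genes, 1 rose and 11 fell at 6 h in SPT6-AID cells, with a median of -0.47. MEPCE, which caps and guards 7SK RNA (-1.58 ± 0.17), CDK12, a kinase of the polymerase tail (-1.42 ± 0.16), and MLLT3, a subunit of the super elongation complex (-1.24 ± 0.11), fell, and EAF1, a partner of the ELL elongation factors, rose (0.43 ± 0.12). In PAF1-AID cells 3 rose and 5 fell (median 0.19), among them EAF1 (0.79 ± 0.12), MEPCE (-1.09 ± 0.17) and LARP7, which holds 7SK RNA (-0.77 ± 0.13). Under TMM, MEPCE, CDK12, MLLT3 and HEXIM1 fell and EAF1 rose in both lines, as 1038 genes (4.99% of those tested) fell and 478 (2.3%) rose in both.

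Of 13 genes of SPT6, DSIF, FACT and their partners, 1 rose and 4 fell at 6 h in SPT6-AID cells, with a median of 0.01 (all genes 0.04, with 25.2% called in either direction). CHD1, a chromatin remodeller (-1.67 ± 0.17), PHF3, which binds the polymerase tail (-1.41 ± 0.14), and IWS1, the direct partner of SPT6 (-1.74 ± 0.20), fell, and SPTY2D1, the human SPT2 histone chaperone, rose (0.67 ± 0.13). Under TMM, SPTY2D1 (1.138 ± 0.13) and SUPT6H rose and IWS1 fell (-1.21 ± 0.19) in PAF1-AID cells, with a median of 0.22. Per fly read the SUPT6H libraries at 6 and 0 h overlapped there. Of 15 genes of the SKI complex, which contains WDR61, and of the RNA exosome, 0 rose and 5 fell in SPT6-AID cells (median -0.23), among them EXOSC2 (-0.94 ± 0.12), EXOSC3 (-1.15 ± 0.15) and EXOSC4 (-0.82 ± 0.19). In PAF1-AID cells 0 rose and 2 fell (median -0.03), EXOSC8 (-0.52 ± 0.12) and EXOSC3 (-0.59 ± 0.15). The genes that fell in this list were all exosome subunits, which also make up most of the list.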

How the data were processed

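Counts per gene were deposited by the authors as whole-number read counts in 1 table for all 12 libraries, not normalized, with a transcript length and a gene length per gene. Per the labels' protocols, total RNA was column-purified, poly(A) RNA was selected and libraries were made with a directional kit. The tools were cutadapt 1.14 (trimming), STAR 2.7.5 (alignment) and featureCounts 2.0.0 (counting), on GRCh38 for human and BDGP6 for fly, per the submitters' processing notes. The counting strand, the annotation release and the fly input are not given in the sources used here. Each of the 12 count columns names 1 sample, and 0 columns of other samples were found.

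Human genes passing edgeR's filterByExpr (20791) were TMM-scaled, and edgeR 4.0.16 fitted 1 mean for each of 6 groups over the 12 libraries, which left 6 residual degrees of freedom. Its quasi-likelihood test was run for 9 comparisons, each with Benjamini-Hochberg adjustment over every gene in the fit. The SE of a log2 fold change was derived from its F statistic. CPM are TMM-scaled, log2 CPM used a prior count of 2, and depth was 29961183 to 110340057 human counts a library. Gene positions came from GENCODE 29 on GRCh38, matched by gene ID, and promoters from RefSeq on GRCh38.p14. The fit was tested on simulated data. Alternatives were DESeq2 size factors, total counts, fly totals, no filter, a mean of 1 CPM, DESeq2 1.42.0, limma-voom (limma 3.58.1), a fit to 1 line, a prior count of 2, a replicate block, and leaving out each library. The 6 members and the gene lists were chosen with earlier results of these data known. Genes named from a list are at most 3 with the smallest p among those called, in each comparison. RNF20, RNF40, HEXIM1, the genes that overlap a subunit, and SUPT6H in PAF1-AID cells at 6 h were named outside that rule. So were CXXC1, EAF1 and SPTY2D1 in SPT6-AID cells at 6 h, each as the gene of its list that rose.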

Additional observations from a re-analysis of the deposited data

Results flagged for a closer look

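The difference between the 6 h responses, SPT6-AID minus PAF1-AID, was tested as an interaction term in edgeR and passed for 2 subunits. For LEO1 it was -1.47 on the log2 scale (adjusted p = 0.0130): both SPT6-AID libraries at 6 h lay below both at 0 h, and both PAF1-AID libraries at 6 h lay above both at 0 h. For RTF1 it was -1.01 (adjusted p = 0.0424), with the same positions of the libraries. These positions are of TMM-scaled CPM, and 58.7% of all genes in SPT6-AID cells and 55.1% in PAF1-AID cells also had no overlap. Scaled by fly reads, LEO1 in PAF1-AID cells was lower at 6 h, at 54.8 and 62.3 CPM, against 70.1 and 65.8 CPM at 0 h. RTF1 there overlapped, at 134 and 164 CPM at 6 h, against 175 and 153 CPM at 0 h. Over the settings that keep all libraries LEO1 ran from -1.50 to -1.36 (adjusted p of 2.08e-06 to 0.108) and RTF1 from -1.04 to -0.90 (adjusted p of 2.78e-05 to 0.237). Groups of 2 libraries are too small to test for a library that stands apart.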

How the results depend on the processing

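At 6 h against 0 h, LEO1 and CDC73 in SPT6-AID cells and CTR9 in PAF1-AID cells passed in all 22 alternative settings, RTF1 in SPT6-AID cells in 21 and CTR9 there in 19. The number of subunits called was 4 in SPT6-AID cells, 5 under total counts and with the replicate block (PAF1 added), 4 under fly totals (PAF1 in place of CTR9) and 3 to 4 with a library left out. For PAF1-AID cells at 6 h against 0 h it was 1, 2 under fly totals and 3 with the replicate block. For SPT6-AID cells at 6 against 2 h it was 4, 1 with the line alone, 5 with the replicate block and 1 to 4 with a library left out. For PAF1-AID cells at 6 against 2 h it was 0, 1 each with no filter, a mean of 1 CPM and DESeq2's Wald test, 2 with the replicate block, and 0 to 1 with a library left out. For the difference between the responses at 6 h it was 2, 1 each with DESeq2 size factors, total counts and a mean of 1 CPM, 0 under fly totals, 3 with the replicate block, and 0 to 3 with a library left out. Between the lines at 0 h it was 0, and 1 (PAF1) each with no filter, a mean of 1 CPM and DESeq2's Wald test. Besides these, SPT6-AID cells at 6 against 2 h gave 3 under total counts and 3 with a mean of 1 CPM, where RTF1 was lost. Under fly totals that comparison gave 4, with PAF1 in place of CTR9. The difference between the responses at 6 h gave 3 with DESeq2's Wald test, where CDC73 was added. Causes were not tested.

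Of 1164 recomputed values, 43 changed sign, none of them past the threshold before or after. Under fly totals WDR61 turned to -0.10 (2 h against 0 h), -0.31 (6 against 0 h) and -0.20 (6 against 2 h) in SPT6-AID cells and to -0.15 and -0.066 at 2 and 6 h against 0 h in PAF1-AID cells, where LEO1 and RTF1 turned to -0.21 and -0.14 at 6 h. The difference at 2 h turned to 0.014 for PAF1, 0.033 for CDC73 and 0.052 for WDR61, and that between the lines at 0 h to 0.0087 for LEO1 and 0.081 for CDC73. Under total counts WDR61 turned to -0.012 at 2 h in PAF1-AID cells, CDC73 and WDR61 to 0.014 and 0.043 in the difference at 2 h, and CDC73 to 0.029 between the lines. CTR9 at 2 h in SPT6-AID cells was 0.0011 with no filter and 0.014 with a mean of 1 CPM. With a library left out, SPT6-AID cells gave -0.082 to 0.046 for CTR9 and -0.10 to 0.17 for WDR61 at 2 h, and -0.036 to 0.35 (6 against 0 h) and -0.072 to 0.31 (6 against 2 h) for WDR61. PAF1-AID cells at 2 h gave -0.044 to 0.020 for PAF1, -0.16 to 0.073 for LEO1, -0.18 to 0.13 for RTF1 and -0.063 to 0.21 for WDR61, and -0.14 to 0.071 for CDC73 at 6 against 2 h. The difference at 2 h ran from -0.19 to 0.034 for CDC73, -0.28 to 0.030 for RTF1 and -0.18 to 0.10 for WDR61, that at 6 h from -0.35 to 0.039 for WDR61, and that between the lines from -0.12 to 0.025 for CDC73.

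Libraries with the same replicate number deviated together in each line, with correlations over 20791 genes of 0.57 to 0.66 in SPT6-AID cells and 0.49 to 0.53 in PAF1-AID cells. What a number stands for is not in the labels, and each line has 2 numbers, so the replicate block stayed an alternative. With it 4927 genes rose and 5756 fell at 6 h against 0 h in SPT6-AID cells, and 3827 rose and 4131 fell in PAF1-AID cells. Subunits gained with the block at 6 h against 0 h were PAF1 in SPT6-AID cells (-0.36, adjusted p = 0.00125) and RTF1 and WDR61 in PAF1-AID cells (0.24 and 0.31, adjusted p = 0.0416 and 0.00884). Between 6 and 2 h they were PAF1 in SPT6-AID cells (-0.26, adjusted p = 0.0150) and CTR9 and RTF1 in PAF1-AID cells (0.60 and 0.27, adjusted p = 0.000171 and 0.0433), and in the difference at 6 h CDC73 (-0.88, adjusted p = 0.000385), all by edgeR. No paired analysis was possible between the lines at 0 h because they share no numbers. Groups had 2 libraries each, which limits the precision of small changes.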
